A study of Homo sapiens with 14 samples.

Results

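The genes described here are the canonical histone genes, named in the deposited RNA-seq table by cluster (HIST1 to HIST4) and by histone family (H1, H2A, H2B, H3 and H4). Of the 35805 rows of the table, 71 matched that naming pattern, and 1 of them, HIST2H3PS2, was left out because its name marks a pseudogene. The remaining 70 genes comprised 6 of the H1, 17 of the H2A, 18 of the H2B, 14 of the H3 and 15 of the H4 family. A pair of rows both carried the symbol HIST2H2AA4, and the row at chr1:149842188-149842736 is called HIST2H2AA3 here because GENCODE v29 gives that name at the same coordinates.

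Canonical histones form the nucleosome core (H2A, H2B, H3 and H4) and bind the linker DNA between nucleosomes (H1). Their short, mostly intronless genes lie in clusters and are transcribed chiefly in S phase, when replicated DNA has to be packaged. Their messenger RNAs generally end in a conserved stem-loop bound by SLBP instead of a poly(A) tail, so libraries of total RNA capture them where poly(A) selection would lose most of them. A few family members, among them HIST1H1T, HIST1H2AA, HIST1H2BA and HIST3H3, are best known from the testis.

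All cells were K562, an established human erythroleukaemia line, and all groups carried dCas9-KRAB, an inactive Cas9 joined to a repressor domain that lowers transcription at the site a guide RNA selects. The 6 groups were measured as bulk total RNA depleted of ribosomal RNA: untransduced cells (2 labelled libraries), cells with the control guide sgAAVS1 (3), and cells with guides against TASOR (2), TASOR2 (3), MPP8 (2) or PPHLN1, the gene of Periphilin (2). The guides of a knockdown group are different guides against 1 gene, and RNA of transduced cells was taken 7 days after transduction. TASOR, MPP8 and Periphilin are the subunits of the HUSH complex, which silences transposable elements and other sequences through chromatin, and the design sets them beside TASOR2. The comparisons ask how loss of each protein changed transcript levels relative to sgAAVS1, and how the TASOR and TASOR2 knockdowns differed.

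The table holds group means on a log2 scale and no single libraries. Every level below is therefore the authors' group mean in log2 RPM (reads per 1000000 reads), with no SD, and every ± beside a difference is the half-width of a 95% interval for counting error only. No p-value could be computed, and spread between guides or cultures was not measured. For a call of higher or lower, a gene needed a difference of at least 1 log2 unit between group means, a mean above 0 in the higher group, and a counting interval that left out 0. Depth recovered from the low values lay between 5857954 reads per library for TASOR2 and 7406988 for untransduced cells. The smallest steps correspond to 3 libraries in the sgAAVS1 mean and 2 in every other mean, including TASOR2, for which the labels list 3. The targeted transcripts kept 6.56% (FAM208A, the gene symbol of TASOR in the table), 37.5% (FAM208B, that of TASOR2), 28.2% (MPHOSPH8, that of MPP8) and 40.8% (PPHLN1) of the sgAAVS1 level. All 8 K562 markers examined, among them the fetal globin genes HBG1 and HBG2 and the erythroid regulators GATA1 and KLF1, had means of 6.10 or more in every group, and none was called in any comparison. Among markers of other cell types, MS4A1, INS and SFTPC had 0 reads in every group, ALB was at or next to 0 reads, and COL1A1 (5.44 to 5.93), CD3D (4.30 to 4.78) and CD3E had reads, again with no call.

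RefSeq promoter windows of 300 bases, from 250 before to 50 after the start (GRCh38.p14), were matched for 65 of the 70 genes. The TATA box sequence TATAAA occurred on either strand in 43 of the 65 windows (66.2%) and in 12% of all 27305 windows of the same length. The CCAAT box sequence CCAAT, read on both strands, occurred in 55 of 65 (84.6%) against 35.7% of all windows. The octamer ATTTGCAT, known from H2B promoters as a site for POU factors, occurred in 25 of 65 (38.5%) against 1.8%. Its first letters, ATTTGC, which lie inside the octamer and so overlap it wherever it is found, occurred in 32 of 65 (49.2%) against 11.2%. The families differed in these letters. The octamer was found in 11 of 16 H2A and 14 of 18 H2B windows and in 0 of 6 H1, 0 of 12 H3 and 0 of 13 H4 windows. Windows of head-to-head H2A and H2B genes overlap, such as chr6:27893136-27893435 (HIST1H2AM) and chr6:27893175-27893474 (HIST1H2BO). The same letters can thus count for both genes, in the families and in the totals of 65, so these windows are not independent. CCAAT was present in every H1, H2A, H2B and H3 window matched and in 3 of 13 H4 windows (23.1%).

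A set of 4 windows is printed because their genes carry the contrasts described below: HIST1H2BA, the histone gene called higher in the TASOR2 knockdown, HIST1H2BO and HIST1H2BM, of which the former was abundant and the latter close to silent, and HIST1H4E, of the family that stood highest in the MPP8 knockdown. Each is written 5′ to 3′ along its gene, with the TATA box, CCAAT box and octamer core letters in capitals in whichever orientation they were found.
HIST1H2BA (chr6:25726527-25726826, plus strand): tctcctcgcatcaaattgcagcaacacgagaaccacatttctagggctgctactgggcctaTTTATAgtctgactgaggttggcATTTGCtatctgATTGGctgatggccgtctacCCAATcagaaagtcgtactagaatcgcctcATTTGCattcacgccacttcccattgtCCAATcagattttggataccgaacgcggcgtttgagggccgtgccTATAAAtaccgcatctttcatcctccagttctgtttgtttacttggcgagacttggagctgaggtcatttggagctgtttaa
HIST1H2BO (chr6:27893175-27893474, plus strand): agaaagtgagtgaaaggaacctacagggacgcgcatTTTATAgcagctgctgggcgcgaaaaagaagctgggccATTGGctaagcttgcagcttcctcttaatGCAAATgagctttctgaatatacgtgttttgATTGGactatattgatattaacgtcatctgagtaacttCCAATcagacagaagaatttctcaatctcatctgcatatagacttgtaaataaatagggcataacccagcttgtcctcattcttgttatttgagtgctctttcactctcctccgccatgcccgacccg
HIST1H2BM (chr6:27814772-27815071, plus strand): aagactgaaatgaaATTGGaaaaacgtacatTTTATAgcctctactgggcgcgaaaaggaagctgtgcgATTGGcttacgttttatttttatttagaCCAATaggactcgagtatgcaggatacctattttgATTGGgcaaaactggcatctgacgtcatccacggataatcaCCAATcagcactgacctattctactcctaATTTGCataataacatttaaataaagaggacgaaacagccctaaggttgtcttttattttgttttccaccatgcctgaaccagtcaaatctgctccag
HIST1H4E (chr6:26204360-26204659, plus strand): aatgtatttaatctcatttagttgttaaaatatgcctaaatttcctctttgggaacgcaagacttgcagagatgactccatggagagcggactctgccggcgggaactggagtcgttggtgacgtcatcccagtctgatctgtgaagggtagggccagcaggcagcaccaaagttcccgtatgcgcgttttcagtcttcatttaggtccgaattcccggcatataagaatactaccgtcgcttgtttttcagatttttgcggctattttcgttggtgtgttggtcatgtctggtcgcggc
The abundant HIST1H2BO and the near-silent HIST1H2BM both hold all of these letters in some orientation, as does HIST1H2BA. The HIST1H4E window holds none of them in these exact spellings. In HIST1H2BO and HIST1H2BM the TATA letters occur only in the reverse orientation, TTTATA. The overlapping windows of the head-to-head genes HIST1H2AM and HIST1H2AJ hold the same letters as TATAAA.

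The histone genes fell into abundant genes and genes with few or no reads. In 45 of the 70 the mean was above 3 in all 6 groups, in 8 no read was counted in any group, and 17 lay between. The abundant genes comprised 4 H1, 13 H2A, 13 H2B, 6 H3 and 9 H4 genes, with medians over these 45 of 5.58 in sgAAVS1 cells, 5.47 in untransduced cells, 5.59 in TASOR, 5.62 in TASOR2, 5.69 in MPP8 and 5.69 in PPHLN1 cells. The 8 genes at 0 reads were HIST1H3C, HIST1H3G, HIST1H3I, HIST1H4F, HIST1H4G, HIST1H4L, HIST1H2BI and HIST4H4. A count of 0 allows up to 3 reads over a group, which is a log2 level of -2.63 in sgAAVS1 and -1.97 in TASOR2 cells. How the authors' alignment treated reads that match several histone genes is not stated in the sources at hand, so the sequences were compared with each other. Each of the 8 shared under 5% of its windows of 50 bases with another transcript. Among the 70 genes, 30 shared no such window, while 16 shared at least 50% and 7 shared all of them, among them the duplicated HIST2H4A and HIST2H4B, HIST2H3A and HIST2H3C, and HIST2H2AA3. For those duplicates the split of reads between the copies is uncertain.

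**Figure D1:**
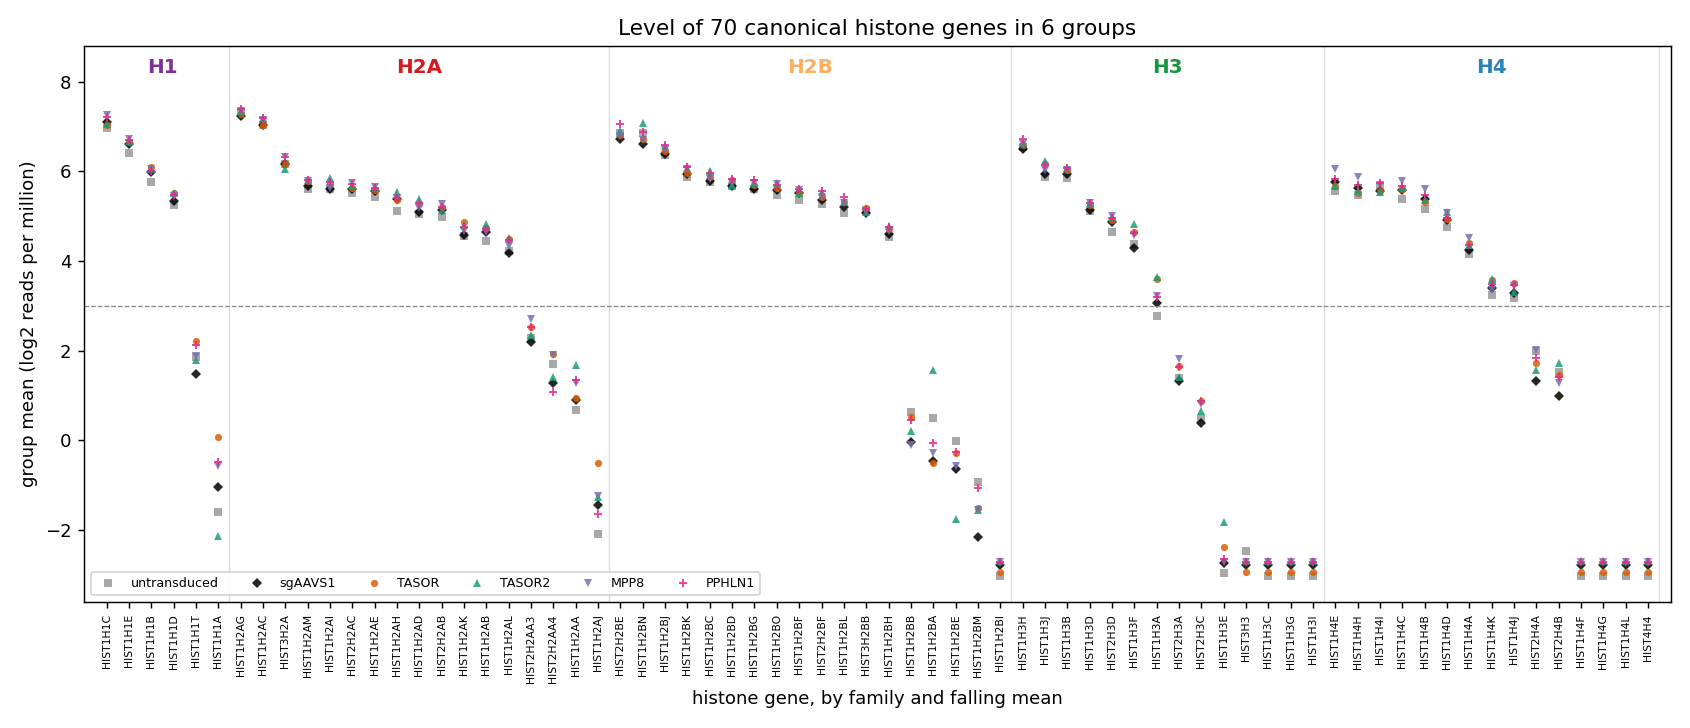
Group means of the 70 canonical histone genes in log2 RPM (y axis), ordered by family and by falling mean (x axis), with 1 symbol per group and a dashed line at 3. The 6 symbols of an abundant gene nearly coincide, and spread between groups is visible mainly below the line; levels are not corrected for row length.

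By family, the genes with the highest levels were the following. HIST1H1C, a linker histone gene, stood at 6.96 in untransduced, 7.10 in sgAAVS1, 7.04 in TASOR, 7.06 in TASOR2, 7.25 in MPP8 and 7.22 in PPHLN1 cells. HIST1H1E, also an H1 gene, stood between 6.42 (untransduced) and 6.72 (MPP8). HIST1H2AG had levels of 7.29, 7.23, 7.28, 7.34, 7.34 and 7.39 in the same order of groups. Untransduced cells held the lowest level of both H1 genes, and sgAAVS1 cells that of HIST1H2AG. HIST1H2AC ranged from 7.03 in untransduced, sgAAVS1 and TASOR cells to 7.19 in TASOR2 and PPHLN1 cells. HIST2H2BE ranged from 6.73 in sgAAVS1 to 7.05 in PPHLN1 cells, and HIST1H2BN from 6.61 in sgAAVS1 to 7.08 in TASOR2 cells. The rows of HIST1H2AC, HIST2H2BE and HIST1H2BN span 14972, 44449 and 28039 bases, far more than a histone coding region, so reads from the rest of the row may be part of these levels. The HIST2H2BE row also overlaps those of HIST2H2AA3, HIST2H2AA4, HIST2H3A and HIST2H4B. HIST1H3H ranged from 6.50 (sgAAVS1) to 6.72 (PPHLN1) and HIST1H3J from 5.87 (untransduced) to 6.24 (TASOR2). The HIST1H3J row overlaps that of HIST1H2AM on the same strand, so H2A reads may be part of its level. In each sgAAVS1 library HIST1H3J held 381 reads and HIST1H2AM 318. HIST1H4E and HIST1H4H, the highest H4 genes, ranged from 5.56 to 6.04 and from 5.48 to 5.88, in both cases from untransduced to MPP8 cells.

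Per kilobase of row, the comparison between genes could be made for the 33 abundant genes whose row is under 1000 bases. HIST1H1C led at 7.74 log2 RPM per kilobase in sgAAVS1 cells, ahead of HIST1H4E at 7.44, HIST1H2BK at 7.33 and HIST1H3B at 7.23. Short rows with many reads were densely covered. HIST1H1C held 1.33 reads per base of row in each sgAAVS1 library and HIST1H4E 1.08, against a median of 0.0157 over the 11928 genes with at least 50 reads, and 20 of the 50 most densely covered genes were canonical histone genes. Whether duplicate reads were removed is not stated. At such densities its effect on the differences below was not tested.

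No canonical histone gene was called higher or lower on loss of TASOR, MPP8 or PPHLN1, and 1, HIST1H2BA, was called higher on loss of TASOR2. Of the 70 genes, 57 entered the comparison because at least 1 of their group means was above 0, as did 16434 genes in all; the other 13 were too low. In TASOR cells 0 of 57 were higher and 0 lower, where 1.78% of all tested genes were called higher and 0.298% lower. In TASOR2 cells 1 of 57 was higher and 0 lower, against 2.06% and 1.89% of all genes. In MPP8 cells the counts were 0 and 0, against 1.51% and 0.262%. In PPHLN1 cells they were again 0 and 0, against 2.71% and 0.584%. Untransduced cells, compared with sgAAVS1 in the same way, gave 0 and 0, against 1.25% and 0.219%. These shares of all genes are small, so at 57 genes a count of 0 or 1 is close to the background.

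**Figure D2:**
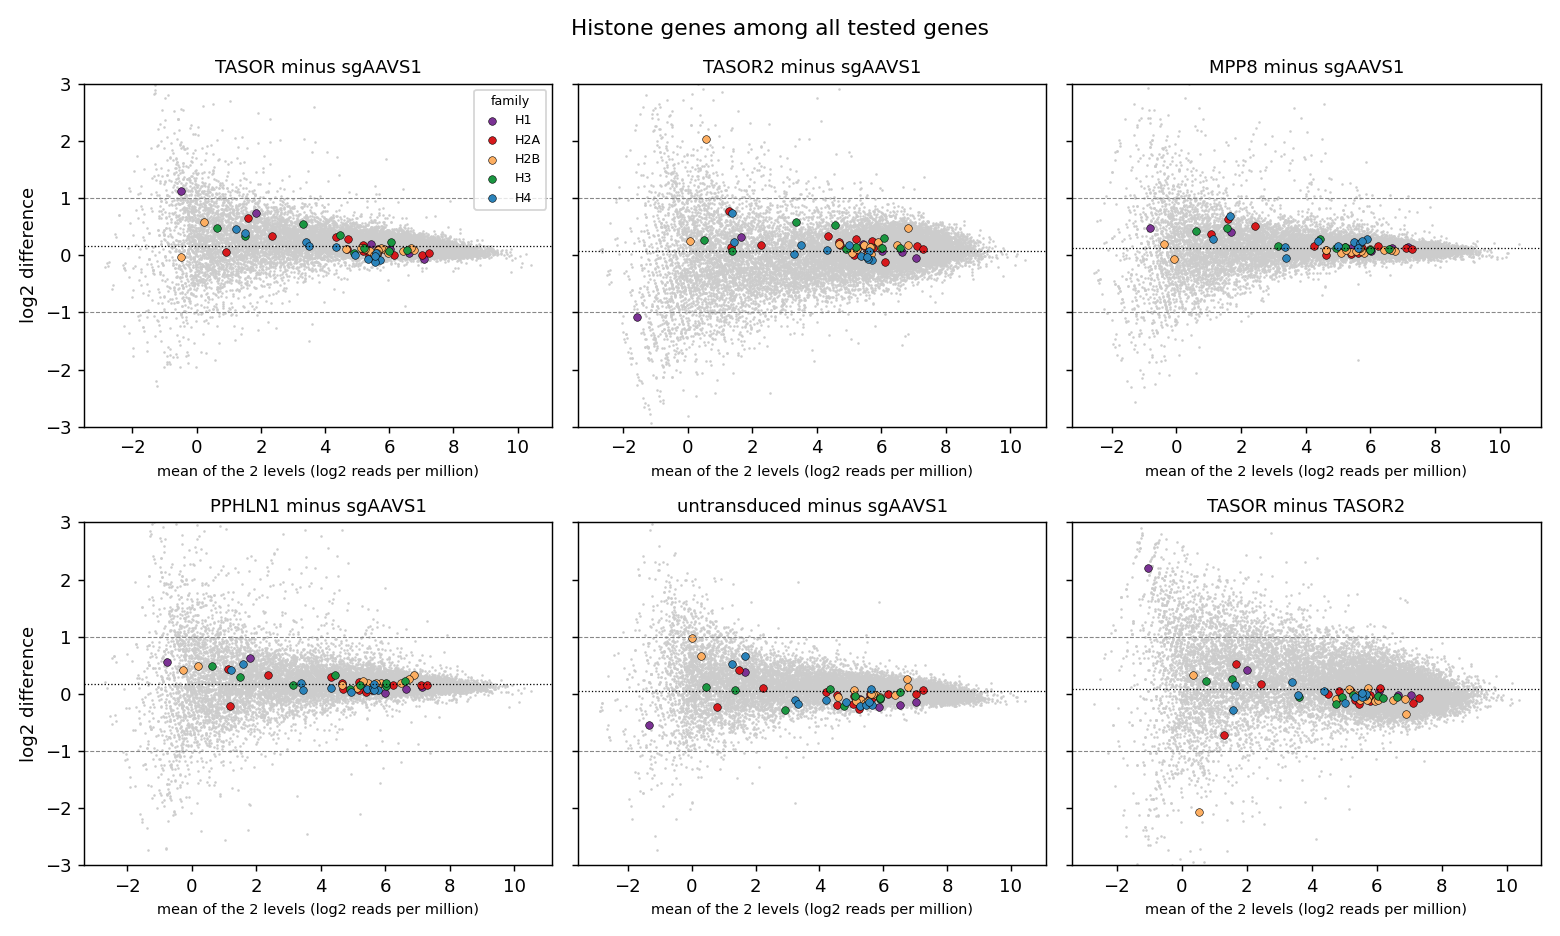
Log2 difference between group means (y axis) against the mean of both levels in log2 RPM (x axis) for all tested genes (grey) and the tested histone genes (coloured by family), with 1 panel per comparison. Dashed lines mark differences of 1 and -1 and the dotted line the median of all tested genes; HIST1H2BA stands at 2.03 in the TASOR2 panel, and abundant histone genes lie close to the dotted line.

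HIST1H2BA encodes an H2B of the male germ line and shares a head-to-head position with HIST1H2AA at chr6:25726132-25727292. Its level was 0.50 in untransduced, -0.47 in sgAAVS1, -0.50 in TASOR, 1.56 in TASOR2, -0.27 in MPP8 and -0.05 in PPHLN1 cells. These means correspond to 17.3 reads per library in TASOR2 cells, 10.5 in untransduced cells and between 4.48 and 5.74 in the other groups. TASOR2 cells thus held the highest level, and untransduced cells stood next, above all other guide groups. The TASOR2 minus sgAAVS1 difference was 2.03 ± 1.03. Against untransduced cells it was 1.06 ± 0.84, which also met the rule, and both control groups differed from each other by 0.97 ± 1.12 (untransduced minus sgAAVS1). HIST1H2BA entered the comparison through its TASOR2 and untransduced means alone. With its sgAAVS1 mean of -0.47 under the required level of 0, it could be called against sgAAVS1 only as higher.

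HIST1H2AA, the divergent neighbour of HIST1H2BA, stood at 0.68 in untransduced, 0.90 in sgAAVS1, 0.95 in TASOR, 1.68 in TASOR2, 1.27 in MPP8 and 1.34 in PPHLN1 cells. Here too TASOR2 cells held the highest level. The difference from sgAAVS1 was 0.78 ± 0.71, under the size needed for a call. The rows of both genes are 381 bases apart, and the window printed for HIST1H2BA covers most of the sequence between them.

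The other testis-type genes moved less or were hardly detected. HIST1H1T stood at 1.86 in untransduced, 1.49 in sgAAVS1, 2.22 in TASOR, 1.80 in TASOR2, 1.89 in MPP8 and 2.12 in PPHLN1 cells, so sgAAVS1 was the lowest of the groups. Its largest difference was 0.74, in TASOR cells. HIST3H3 had reads in untransduced cells only, at -2.46, which lies under the level that a count of 0 allows there (-2.30), so no difference is given.

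HIST1H1A, a replication-dependent linker histone gene, was the lowest H1 gene. It stood at -1.60 in untransduced, -1.05 in sgAAVS1, 0.08 in TASOR, -2.13 in TASOR2, -0.57 in MPP8 and -0.49 in PPHLN1 cells. The TASOR mean corresponds to 7.35 reads per library and the TASOR2 mean to 1.34. TASOR and TASOR2 cells held the highest and the lowest level, and the gene entered the comparison through TASOR cells alone, so it had to be higher there. TASOR minus sgAAVS1 was 1.13 ± 1.29, and the interval includes 0. TASOR minus untransduced was 1.68 ± 1.46, which met the rule. With untransduced cells as the control, HIST1H1A in TASOR cells (1.12% of all genes higher, 0.724% lower) and HIST1H2BA in TASOR2 cells (1.25% higher, 3.11% lower) were the only histone genes called. In that setting 0 were called in MPP8 cells (1.09% higher, 0.821% lower) and 0 in PPHLN1 cells (1.47% higher, 0.73% lower).

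In the direct comparison of the TASOR and TASOR2 knockdowns, HIST1H1A was called higher in TASOR cells, by 2.21 ± 1.29, and HIST1H2BA lower, by -2.07 ± 1.17. This is 1 of 57 in each direction, against 4.98% of all tested genes higher and 1.25% lower. For both genes the lower mean was below 0, so the rule could call each of them only in the direction found. TASOR2 shares in both the comparison with sgAAVS1 and this one, so the high HIST1H2BA level in TASOR2 cells enters both.

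A smaller required difference of 0.58 added few genes. In TASOR cells HIST2H2AA4 (0.65) and HIST1H1T (0.74) then met the rule, 2 of 57 against 4.93% of all genes. In TASOR2 cells HIST2H4B (0.74), HIST1H2AA (0.78) and HIST1H3A (0.59 ± 0.33) joined HIST1H2BA, 4 of 57 against 4.98%. In MPP8 cells HIST2H4A (0.69) and HIST2H2AA4 (0.64) met it, in PPHLN1 cells HIST1H1T (0.64), and in untransduced cells HIST2H4A (0.66). Over all genes 3.18% met it in MPP8, 6.0% in PPHLN1 and 2.91% in untransduced cells. No gene was lower at this size in any knockdown or in untransduced cells against sgAAVS1 (0.542%, 4.63%, 0.475%, 0.968% and 0.529% of all genes in TASOR, TASOR2, MPP8, PPHLN1 and untransduced cells). Between TASOR and TASOR2 the counts stayed at 1 higher and 1 lower (12.1% and 2.48% of all genes). HIST2H4A, HIST2H4B and HIST2H2AA4 are near-identical copies, so all values of these 3 genes depend on how reads were divided between copies. HIST1H3A, an H3 gene with no shared window, stood at 2.78 in untransduced, 3.06 in sgAAVS1, 3.60 in TASOR, 3.65 in TASOR2, 3.22 in MPP8 and 3.20 in PPHLN1 cells, so both TASOR and TASOR2 cells lay above the other groups.

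**Figure D3:**
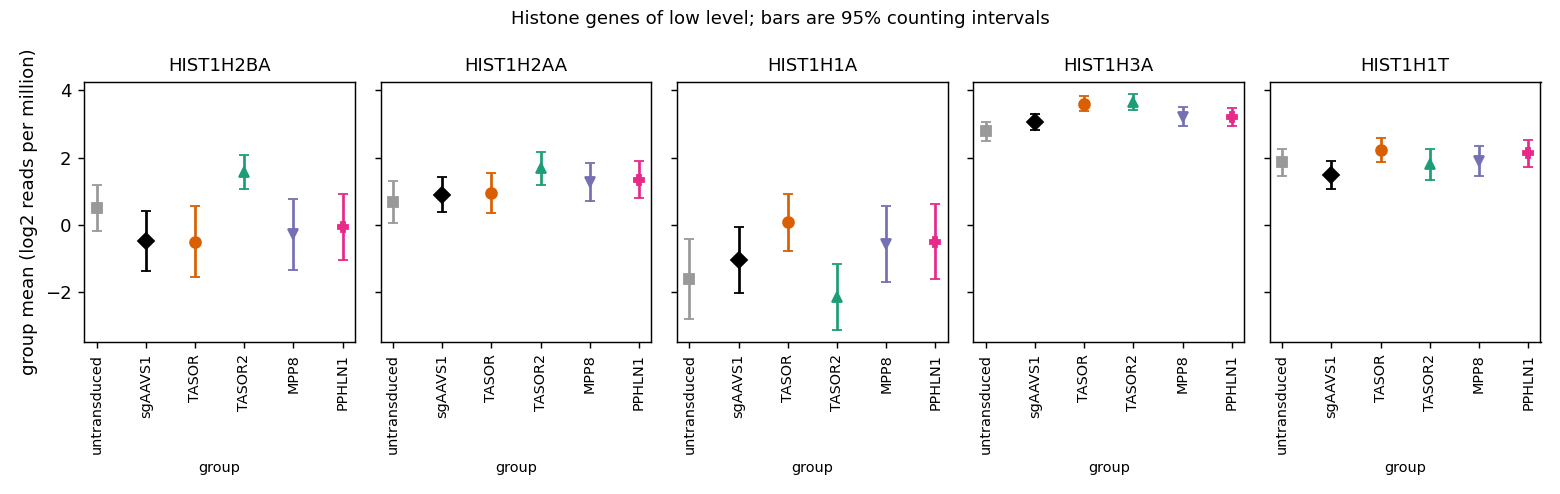
Group means in log2 RPM (y axis) by group (x axis) for 5 histone genes of low level, with bars for the 95% counting interval of each mean. HIST1H2BA reached 1.56 in TASOR2 cells, and HIST1H1A had its highest mean, 0.08, in TASOR cells and its lowest, -2.13, in TASOR2 cells.

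Among the 45 abundant genes the differences were small and tightly grouped. The deposited scaling left the median of all tested genes off 0, at 0.16 in TASOR, 0.07 in TASOR2, 0.12 in MPP8, 0.17 in PPHLN1 and 0.05 in untransduced cells against sgAAVS1, so the histone medians are read against these. The median of the 45 was 0.08 in TASOR cells, with a range of -0.12 to 0.35, and 8 of 45 lay above the median of all genes. In TASOR2 cells it was 0.13, with a range of -0.11 to 0.53, and 30 of 45 lay above the median of all genes. In MPP8 and PPHLN1 cells the medians were 0.12 and 0.15, close to those of all genes, and 16 and 15 of 45 lay above them. The SD across the 45 genes was 0.099 in TASOR, 0.130 in TASOR2, 0.069 in MPP8 and 0.073 in PPHLN1 cells, while counting error alone gives 0.082, 0.086, 0.086 and 0.085. Spread between the abundant histone genes in MPP8 and PPHLN1 cells was thus no larger than counting error, and in TASOR2 cells it was larger. The 9190 other genes in the same range of levels had SDs of 0.156, 0.299, 0.150 and 0.183 in the same order of groups, and the 49 other abundant genes with a row under 1000 bases had SDs of 0.202, 0.302, 0.141 and 0.175. Across the 45 genes, the difference from sgAAVS1 ran against read density in TASOR (Spearman rho -0.55), TASOR2 (-0.44), PPHLN1 (-0.60) and untransduced cells (-0.56), and with it in MPP8 cells (0.28). These values share the sgAAVS1 libraries, describe genes and not replicates, and the part of density in the differences was not tested.

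The extremes of the abundant genes recurred across comparisons that share sgAAVS1. HIST1H3F, an H3 gene with no shared window, stood at 4.38 in untransduced, 4.29 in sgAAVS1, 4.64 in TASOR, 4.82 in TASOR2, 4.58 in MPP8 and 4.62 in PPHLN1 cells. Its level in sgAAVS1 was the lowest of the groups, and it was the highest of the 45 in TASOR (0.35 ± 0.21), TASOR2 (0.53 ± 0.22), MPP8 (0.29 ± 0.23) and PPHLN1 cells (0.33 ± 0.22). The H2A genes HIST1H2AL and HIST1H2AK followed in TASOR cells, at 0.32 ± 0.22 and 0.29 ± 0.20. HIST1H2BN was second in TASOR2 cells at 0.47 ± 0.10, and its untransduced level was also above sgAAVS1, by 0.26 ± 0.10. HIST2H2BE (0.32 ± 0.10) was second in PPHLN1 cells, and HIST1H2AL came next in PPHLN1 (0.29 ± 0.23) and TASOR2 cells (0.33 ± 0.23). HIST1H2AK and HIST1H2AL lie within the long row of HIST1H2BN, on the opposite and on the same strand, and whether reads were counted by strand is not stated. At the other end stood H4 genes. HIST1H4H (-0.12 ± 0.15), HIST1H4E (-0.09 ± 0.14) and HIST1H4B (-0.07 ± 0.16) were lowest in TASOR cells, and HIST3H2A (-0.11 ± 0.13), HIST1H4E (-0.09 ± 0.15) and HIST1H4H (-0.06 ± 0.15) in TASOR2 cells, with every interval including 0. In PPHLN1 cells the lowest, HIST1H1B, HIST1H2AH and HIST1H4D, were at 0.02 to 0.03, and in MPP8 cells HIST1H4K, HIST1H2AB and HIST1H2AH were at -0.05 to 0.02.

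Among the histone families, H4 had the highest median difference in MPP8 cells. The 9 abundant H4 genes had a median difference from sgAAVS1 of 0.21, which is 0.08 above the median of all tested genes, and 7 of 9 lay above that median. The medians of the other families in MPP8 cells, relative to all genes, were 0.00 for H1, -0.02 for H2A, -0.04 for H2B and 0.00 for H3. Of the 9 H4 genes, 8 have a row under 1000 bases. The 49 other abundant genes with such rows had a median 0.06 above all genes in MPP8 cells, and 32 of 49 lay above. In TASOR and TASOR2 cells their medians were -0.05 and -0.02 relative to all genes. The part of row length in the H4 values was not tested. Intervals wholly above 0 were common in MPP8 cells, in 5983 of the 11651 tested genes with all means above 3. Among the 9 H4 genes, HIST1H4E was higher by 0.29 ± 0.14, HIST1H4H by 0.26 ± 0.14, HIST1H4B by 0.23 ± 0.16, HIST1H4C by 0.21 ± 0.15 and HIST1H4A by 0.25 ± 0.23. These 5 of 9 intervals excluded 0, a share close to that background. In contrast, H4 genes had a median difference of 0.01 in TASOR cells and 0.02 in TASOR2 cells, which are -0.15 and -0.04 relative to all genes, and 0.09 in PPHLN1 cells. Against untransduced cells the H4 median in MPP8 cells was 0.35, which is 0.27 above all genes. All 4 abundant H1 genes were also higher in MPP8 than in untransduced cells. Their median levels were 6.38 and 6.09, beside 5.61 and 5.17 for the abundant H4 genes. Summed over the 15 H4 genes the levels were 290.1 RPM in untransduced, 314.5 in sgAAVS1, 313.0 in TASOR, 318.6 in TASOR2, 364.3 in MPP8 and 337.3 in PPHLN1 cells, so MPP8 cells held the highest sum. The H1 family also had its highest sum in MPP8 cells (372.3 RPM, with 365.8 in PPHLN1 cells next). A difference of the size seen for H4 has no estimate of its spread between libraries. The H4 pattern was noticed after the values were seen.

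**Figure D4:**
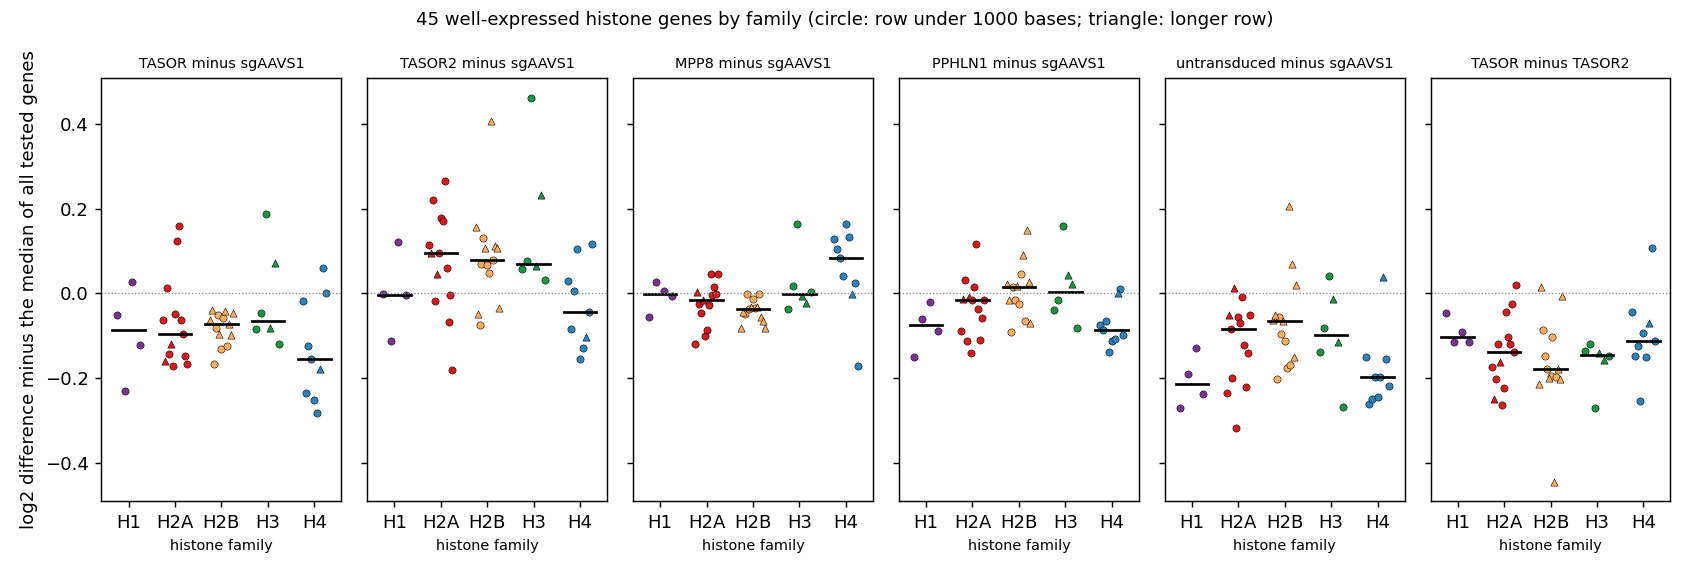
Log2 difference minus the median of all tested genes (y axis) for the 45 abundant histone genes by family (x axis), with 1 panel per comparison, circles for rows under 1000 bases, triangles for longer rows and bars for family medians. The H4 bar is at 0.08 in MPP8 cells and at -0.15 in TASOR cells.

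Untransduced cells lay below sgAAVS1 cells for most abundant histone genes. The median of the 45 was -0.08, where all tested genes had 0.05, and 6 of 45 lay above that. Of the 11651 tested genes with all means above 3, 1384 had intervals wholly below 0 and 2922 wholly above. Among the 45 histone genes, intervals were wholly below 0 for 12 genes and wholly above for 2. The 12 were all among the 33 with rows under 1000 bases, whose median was -0.12, while the 12 genes with longer rows had a median of 0.02. HIST1H2AH (-0.27 ± 0.16), HIST1H1B (-0.22 ± 0.13) and HIST2H3D (-0.22 ± 0.19) were lowest, and HIST1H2BN (0.26 ± 0.10), HIST2H2BE (0.12 ± 0.09) and HIST1H3F (0.09 ± 0.22) highest. The other 49 abundant genes with short rows had a median of 0.04. With untransduced cells as the control, the abundant histone medians became 0.16 in TASOR, 0.20 in TASOR2, 0.18 in MPP8 and 0.21 in PPHLN1 cells, above the medians of all genes by 0.04, 0.16, 0.10 and 0.08. The choice of control thus turned the sign of the values relative to all genes in TASOR, MPP8 and PPHLN1 cells, which were -0.08, -0.01 and -0.02 against sgAAVS1, and left the sign of the TASOR2 value, which was 0.06. In such bulk RNA, fewer cells in S phase and less histone RNA per cell cannot be told apart. Of the 24 S phase and replication genes listed, such as PCNA and the MCM helicase genes, 0 were called in any comparison, and their median relative to all genes was -0.08 in untransduced, -0.11 in TASOR, 0.01 in TASOR2, -0.03 in MPP8 and -0.03 in PPHLN1 cells.

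Between the knockdowns of TASOR and TASOR2, abundant histone genes were slightly lower in TASOR cells. The median difference was -0.05, where all tested genes had 0.09, and 3 of 45 lay above that. HIST1H2BN (-0.35 ± 0.10), HIST1H3F (-0.18 ± 0.22) and HIST1H2AH (-0.17 ± 0.17) were lowest, and HIST1H4J (0.20 ± 0.35), HIST3H2A (0.11 ± 0.14) and HIST1H2BD (0.11 ± 0.15) highest. The value relative to all genes changed when base composition was adjusted for. Over the 57 tested genes the median relative to all genes was -0.13, and -0.25 after the trend of the difference on GC content was removed. The TASOR2 minus sgAAVS1 median of the 57 likewise went from 0.08 to 0.19, and that of untransduced cells from -0.11 to -0.06.

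The genes lie in 7 stretches. The largest, at chr6:26017085-26285509, holds 32 genes, 21 of them abundant and 5 without reads. A further 16 lie at chr6:27807444-27893843, 5 at chr6:27125897-27147515, all of them abundant, and the testis pair at chr6:25726132-25727292. The HIST2 cluster (chr1:149782689-149887916) holds 11 genes, HIST3 holds 3 and HIST4 holds HIST4H4 alone on chromosome 12. Median differences of the abundant genes in the stretches of 32, 16 and 5 genes and in HIST2 were, in that order, 0.08, 0.12, 0.03 and 0.06 in TASOR cells, 0.12, 0.17, 0.13 and 0.10 in TASOR2 cells, 0.13, 0.10, 0.11 and 0.12 in MPP8 cells, and 0.11, 0.19, 0.16 and 0.11 in PPHLN1 cells. The highest and lowest of these 4 medians differed by 0.09 in TASOR, 0.07 in TASOR2, 0.03 in MPP8 and 0.07 in PPHLN1 cells. Of the 21 tested genes that are not histones and lie within the HIST1 span, RP1-153G14.4 was called lower in MPP8 cells. It stood there at -0.41 against 1.65 in sgAAVS1 cells, a difference of -2.06 ± 1.16. RP11-457M11.7 was called higher in TASOR2 cells (0.03 against -1.86, a difference of 1.89 ± 1.30), and lower in TASOR than in TASOR2 cells. However, RP11-457M11.7 entered the comparison through TASOR2 cells alone. Each of these counts is 1 of 21. Over all tested genes 0.262% were lower in MPP8 cells, 2.06% higher in TASOR2 cells and 1.25% lower in TASOR than in TASOR2 cells.

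Of 11 head-to-head pairs of H2A and H2B genes with rows under 500 bases apart, 9 had both genes above a mean of 3 over the 6 groups. Most genes of both families were abundant in any case (13 of 17 H2A and 13 of 18 H2B genes), so this count is not a result about the pairs. The pair HIST1H2AM and HIST1H2BO, 313 bases apart, had means of 5.75 and 5.64. The pair HIST1H2AJ and HIST1H2BM, 303 bases apart in the same stretch of chromosome 6, had means of -1.36 and -1.46. HIST1H2BM stood at -0.94 in untransduced, -2.16 in sgAAVS1, -1.50 in TASOR, -1.55 in TASOR2, -1.57 in MPP8 and -1.08 in PPHLN1 cells, all below the minimum for a comparison. The testis pair HIST1H2AA and HIST1H2BA lay between, at 1.13 and 0.13.

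**Figure D5:**
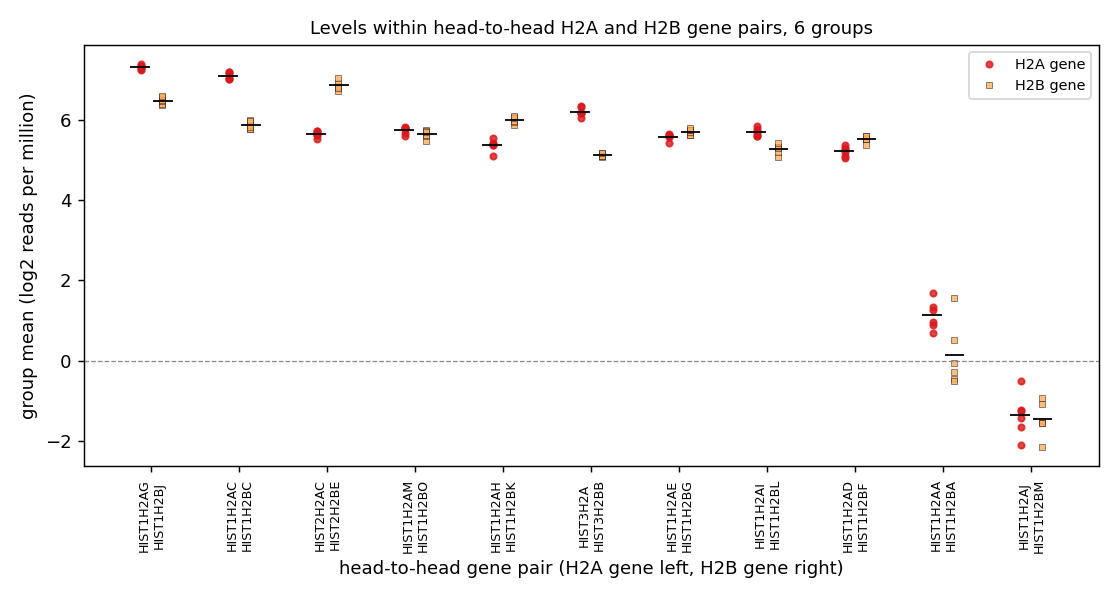
Group means in log2 RPM (y axis), not corrected for row length, of the 11 head-to-head H2A (circles) and H2B (squares) gene pairs (x axis), with 1 symbol per group and bars for the mean of the 6 groups. The 9 pairs on the left are abundant in every group, and the HIST1H2AJ and HIST1H2BM pair lies below 0.

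Listed genes that act on histone RNA or protein gave no call. Of 15 tested genes of histone RNA transcription and processing, such as SLBP, the stem-loop binding protein, NPAT, the coactivator of histone genes, and LSM10 and LSM11 of the U7 particle, 0 were called in any comparison. NPAT stood at 6.95 in untransduced, 6.68 in sgAAVS1, 6.95 in TASOR, 7.25 in TASOR2, 6.60 in MPP8 and 6.86 in PPHLN1 cells, so TASOR2 cells had its highest level. SLBP ranged from 6.60 in untransduced to 6.88 in TASOR2 cells. The list medians relative to all genes were -0.02 in TASOR, 0.10 in TASOR2, -0.02 in MPP8 and -0.02 in PPHLN1 cells. Of 20 histone chaperone genes 0 were called in any comparison, with list medians relative to all genes of -0.10 in TASOR, 0.01 in TASOR2, -0.04 in MPP8 and -0.05 in PPHLN1 cells. Of 12 mitosis genes 0 were called either, but in TASOR2 cells their median was 0.19 above all genes. The interval of the difference there was above 0 for 10 of 12, such as CDK1 (0.53 ± 0.09) and the kinesin gene CENPE (0.52 ± 0.07). It was above 0 for 5157 of the 11651 tested genes with all means above 3. In TASOR minus TASOR2 the mitosis median was -0.25 and the S phase median -0.14 relative to all genes, beside -0.14 for the 45 abundant histone genes. In PPHLN1 cells the interval was above 0 for 12 of 12 mitosis genes, and for 8224 of the same 11651 genes. The mitosis median there was 0.01 above that of all genes. The part of these cell cycle genes in the histone values was not tested. Of the 19 histone variant genes in the table that the naming pattern does not cover, 9 were tested, and H1F0, the H1.0 linker histone of differentiated cells, was called higher in PPHLN1 cells (1.34 ± 1.26). It stood at 0.06 in untransduced, -0.92 in sgAAVS1, -0.14 in TASOR, -0.05 in TASOR2, 0.02 in MPP8 and 0.41 in PPHLN1 cells. Thus sgAAVS1 was lowest and the untransduced level was close to those of the knockdowns. With its sgAAVS1 mean below 0, H1F0 could be called against sgAAVS1 only as higher. This call is 1 of 9 tested variants, where 2.71% of all tested genes were higher and 0.584% lower in PPHLN1 cells. Among the other 8 tested variants the largest difference of a knockdown from sgAAVS1 was that of H2AFV, 0.28 ± 0.07 in TASOR2 cells, and H2AFX was higher by 0.20 ± 0.08 in PPHLN1 cells.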

How the data were processed

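Per the labels' protocols, DNase-treated total RNA was depleted of ribosomal RNA and made into libraries with a strand-specific kit. The genome build was hg38 and the tools named are cutadapt and Bowtie2, per the submitters' processing notes. Versions, the read counter, the handling of duplicate and multiply matching reads and the use of strand are not stated there. Judged from its values and per the file headers, the deposited table holds the log2 mean of untransduced cells and, in the other 5 columns, deposited values found to be quotients, as a ratio of each group's log2 mean to that mean. Multiplying them gave each group's log2 mean. All low values checked were means of whole reads (100%, tolerance 0.001 log2, 0 reads set to 0.9), which gave the depths. Linear values sum to 1182967 to 1323009 over the rows of a group, so RPM is an approximate name.

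The planned limma test needs single libraries, and a rule of size replaced it. Genes with a group mean above 0 were tested (16434, after 15 rows repeating a symbol were dropped). Intervals take the Poisson variance of log reads at the recovered depth. The rule was tested on simulated data that hold counting error alone. Named genes were those called, the 2 highest per family, the 3 highest and 3 lowest abundant genes per comparison and the testis-type genes. A marker of another cell type is not reported here. The genes and lists were chosen with earlier results of these data known. Rows were matched to GENCODE v29 (identical coordinates for 59 of 70). Alternatives covered scaling, filters, GC content, call size, control group and near-identical or overlapping rows. Python 3.11.15, numpy 2.4.6 and pandas 2.3.3 were used.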

Additional observations from a re-analysis of the deposited data

How the results depend on the processing

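Group means alone limit every value: no spread between libraries or guides was measured, and leaving out single libraries could not be run. No paired analysis was possible because the table holds group means and no single libraries. At the recovered depth, genes near a level of 0 rest on a few reads per library. Across the alternatives, 81 of 92 counts of called histone genes were equal to the main count or within 1.5 times of it. Most of these counts were 0 in the main setting and stayed 0. For HIST1H2BA and HIST1H1A, 18 of 19 differences still met the rule. Among the 19 are settings that cannot change these values: no low-value filter, the smaller required difference and the removal of near-identical or overlapping rows. The 19 leave out the setting with a highest mean above 2, in which neither gene was tested. Of 40 medians of the tested histone genes relative to all genes, 8 changed sign, 3 of them with untransduced cells as control (TASOR from -0.06 to 0.05, MPP8 from -0.0012 to 0.11, PPHLN1 from -0.01 to 0.09) and 5 without a filter on low values. With a required difference of 0.58, genes called higher became 2 in TASOR, 4 in TASOR2, 2 in MPP8, 1 in PPHLN1 and 1 in untransduced cells. With untransduced cells as control, 1 gene was called higher in TASOR cells. With a highest mean above 2 required, 0 genes were called higher in TASOR2 cells, and 0 higher and 0 lower between TASOR and TASOR2, because both called genes were no longer tested. With quantile normalization, the comparison of TASOR with TASOR2 gave 0 higher and 2 lower genes, HIST1H2AA joining HIST1H2BA. HIST1H1A then differed by 1.90 and no longer met the rule; the cause was not tested. Without a filter on low values, the 5 medians that changed sign became 0.17 for TASOR, 0.05 for MPP8, 0.09 for PPHLN1, 0.095 for untransduced cells and 0.20 for TASOR minus TASOR2, since rows at 0 reads in all groups then enter. GC content was available for 97.6% of tested genes and all 57 histone genes. The alternative without near-identical copies or overlapping rows was chosen after seeing the data.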
